A study of Mus musculus with 16 samples.

Results

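The anterior section of the E8.75 mouse gut tube was set against the embryonic visceral endoderm (emVE) of E7.5 embryos, an earlier stage. The 2 libraries of the anterior section and the 2 of emVE, 4 of the 16 bulk RNA-seq libraries in the series, were chosen by their labels. All genes entered the test. The question was which foregut and pharynx genes were gained in the anterior section, and which genes of the early anterior endoderm were held or lost.

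The anterior libraries came from gut tubes of 13-somite mouse embryos, the stage labelled E8.75, and are labelled by the section of the tube; whether the sections were dissociated is not given in the labels used here. Per the labels' protocol, heads and extraembryonic membranes were taken off, the torsos were loosened in pancreatin and trypsin, and the tubes were lifted out with tungsten needles. The emVE libraries came from E7.5 embryos and are labelled as emVE cells; the endoderm layer was needled away after a pancreatin and trypsin step. That layer holds visceral and definitive endoderm side by side, and how emVE cells were separated from their neighbours is not given in the labels used here. For gut tubes that were dissociated into single cells, the protocol names Afp-GFPTG/+ embryos, which carry a transgene that marks visceral endoderm through elements of the Afp gene. The genotype of the embryos behind these 4 libraries, and their number per library, are not stated. Embryos came from natural matings, RNA was polyadenylated, and the labels name no drug or other test agent for either group. Stage and tissue differ together between the groups, so their parts cannot be told apart. The p-values measure only the spread between libraries of a group, taken over all 8 groups of the series fitted together. This spread may be technical.

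The visceral endoderm is the epithelium that wraps the early embryo, takes up maternal nutrients and secretes apolipoproteins and other plasma proteins. Its embryonic part lies over the epiblast. An anterior domain of it secretes antagonists of Nodal and Wnt, among them Cer1, Lefty1 and Dkk1, and lies under the future head. Definitive endoderm then inserts into this layer, and both contribute to the gut tube. The front of the tube becomes pharyngeal endoderm, which forms pouches under Tbx1, Pax1, Pax9 and Eya1, and the ventral foregut, where Nkx2-1 marks thyroid and lung fields.

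Promoter stretches of 4 genes are shown for the ends of the comparison: Pax1 and Pax9 among the pharyngeal factors that rose, Cer1 among the early anterior genes that fell, and Afp for the visceral endoderm. Each runs 5′ to 3′ on the gene's strand over 250 bases that end at the base before the RefSeq start in GRCm38.p6. Capitals mark matches, on either strand, to GGGCGG (the GC box), TATAAA (the TATA element), TGTTTGC (a FOXA form) or TAATCC (an OTX2 and GSC form). They lie at chr2:147364744-147364993 (+ strand), chr12:56695221-56695470 (+ strand), chr4:82885152-82885401 (- strand) and chr5:90490464-90490713 (+ strand).
Pax1: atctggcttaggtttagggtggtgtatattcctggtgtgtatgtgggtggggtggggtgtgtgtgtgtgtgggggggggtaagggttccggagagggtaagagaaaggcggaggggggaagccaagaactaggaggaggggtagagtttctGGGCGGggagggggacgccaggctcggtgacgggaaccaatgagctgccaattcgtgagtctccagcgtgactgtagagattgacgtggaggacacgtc
Pax9: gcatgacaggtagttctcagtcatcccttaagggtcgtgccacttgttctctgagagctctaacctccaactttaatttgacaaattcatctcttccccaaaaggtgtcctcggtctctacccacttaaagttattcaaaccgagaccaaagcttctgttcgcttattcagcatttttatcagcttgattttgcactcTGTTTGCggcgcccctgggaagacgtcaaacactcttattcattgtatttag
Cer1: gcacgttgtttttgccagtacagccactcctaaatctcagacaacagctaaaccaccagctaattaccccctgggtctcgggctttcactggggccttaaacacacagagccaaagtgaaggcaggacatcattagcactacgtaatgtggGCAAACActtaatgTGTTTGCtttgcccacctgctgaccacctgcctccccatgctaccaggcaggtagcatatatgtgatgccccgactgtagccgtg
Afp: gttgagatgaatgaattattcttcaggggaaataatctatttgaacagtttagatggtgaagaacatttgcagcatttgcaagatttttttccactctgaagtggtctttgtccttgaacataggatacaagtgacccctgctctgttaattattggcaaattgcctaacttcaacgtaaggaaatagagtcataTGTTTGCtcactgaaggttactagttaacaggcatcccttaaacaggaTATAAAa
In Pax1 the GC box began 99 bases upstream of the start. In Pax9 the FOXA form began 52 bases upstream. Cer1 held that form at 85 bases and, on the other strand, at 99 bases upstream. Afp held a TATA box 7 bases and a FOXA form 55 bases upstream. Of the 19 pharyngeal and foregut factors that rose, 12 had a window in the RefSeq table; 8 of these 12 held a GC box, 0 a TATA box, 1 the FOXA form and 1 the OTX2 and GSC form. Of the 22 visceral endoderm genes that fell, 18 had a window; 4 held a GC box, 5 a TATA box, 3 the FOXA form and 1 the OTX2 and GSC form. Of all 27025 genes with a window, 35.4% held a GC box, 14.3% a TATA box, 4.93% the FOXA form and 7.21% the OTX2 and GSC form. A match is a description of letters, not a site.

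The deposited values were raw read counts per gene. Totals were 84509973 and 75413108 counts in the anterior libraries and 57061536 and 65231076 in emVE. Levels are given as CPM, the count of a gene over the library's total scaled by its TMM factor, first for anterior replicate 1 and then replicate 2, and likewise for emVE. Mitochondrial transcripts took 2.02% and 1.96% of counts in the anterior section and 5.48% and 4.77% in emVE, and the part of this difference in the results was not tested. Within each group the libraries differed by more than counting noise, with a chi-square of 47.1 per gene for the anterior pair and 29.0 for the emVE pair. A gene was called where the Benjamini-Hochberg adjusted p of edgeR's two-sided quasi-likelihood test was under 0.05 over all 17313 genes tested; every adjusted p below is from that test, and every log2 fold change is anterior over emVE unless another group is named. Intervals are not adjusted for the number of genes. Of all genes tested, 7336 (42.4%) were called, 3966 of them higher (22.9%) and 3370 lower (19.5%), around a median log2 fold change of 0.06. A call is therefore common in this comparison, and the counts below are to be read against those shares. In the same fit 1370 genes (7.91%) were called between the anterior and the posterior section.

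Marker levels were set beside the labels. Visceral endoderm genes summed to 426 and 422 CPM in the anterior libraries and 20250.4 and 22047 CPM in emVE, while pharyngeal transcription factors summed to 808 and 510.2 CPM in the anterior libraries and 103 and 98.3 CPM in emVE. The listed markers of each label were thus higher in the libraries that carry it. Both lists are reported as results below and were chosen with earlier results of these data known. The sums are therefore a description and not a separate check of the labels. Definitive endoderm genes, which the emVE label does not name, summed to 285 and 271 CPM in the anterior libraries and 1815 and 2040 CPM in emVE. The emVE libraries also held genes of the node and nascent mesoderm, and the anterior libraries held heart, vessel, blood and neural crest genes, as given below. The 2 anterior libraries differed in such genes: heart genes summed to 816 and 1442 CPM and neural crest genes to 131 and 296 CPM, both lower in replicate 1, whereas the pharyngeal factors and epithelial genes were higher in replicate 1. In bulk tissue, fewer cells of a type and less RNA per cell cannot be told apart, which holds for every result that follows.

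Transcription factors of the pharyngeal endoderm rose as a group. All 10 tested members were called higher in the anterior section, with a median log2 fold change of 3.60, and in all 10 both anterior libraries lay above both emVE libraries, as they did in 41.8% of all genes tested (36.0% lay the other way round). Against the posterior section, 7 of the 10 were called higher in the anterior section and 1 lower. Pax1, which patterns the pouches and thymus, had 107 and 47.1 CPM in the anterior libraries and 0.0343 and 0.0304 CPM in emVE. It was all but absent from emVE, and its log2 fold change was 11.15 (SE 1.31, adjusted p = 9.16e-05).

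Ripply3, a repressor that acts with Tbx1, had 102 and 71.4 CPM in the anterior libraries and 2.06 and 2.59 CPM in emVE. The anterior libraries were well clear of emVE, with a log2 fold change of 5.22 (SE 0.50, adjusted p = 1.71e-05). Tbx1, the T-box factor needed to form the pouches, had 97.3 and 73.9 CPM in the anterior libraries and 2.74 and 4.40 CPM in emVE. Its change was 4.58 (SE 0.95, adjusted p = 0.00237) with no overlap between the groups. Foxi3, needed for pouch and ear formation, had 33.7 and 20.1 CPM in the anterior libraries and 2.47 and 0.365 CPM in emVE, and its log2 fold change was 4.25 (SE 0.97, adjusted p = 0.00518). The emVE libraries of Foxi3 differed from each other several-fold but stayed below the anterior ones.

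Pax9, a partner of Pax1 in the pouches, had 101 and 39.6 CPM in the anterior libraries and 6.44 and 11.7 CPM in emVE. It was already present in emVE, and its log2 fold change of 2.95 (SE 0.78, adjusted p = 0.0102) was not called without anterior replicate 1 (adjusted p = 0.0784) or without emVE replicate 1 (adjusted p = 0.0863). Eya1, a phosphatase and transcriptional coactivator, had 113 and 87.7 CPM in the anterior libraries and 33.1 and 28.2 CPM in emVE, a log2 fold change of 1.71 (SE 0.26, adjusted p = 0.000299). Isl1, a LIM factor of pharyngeal endoderm and the adjacent heart field, had 82.0 and 67.6 CPM in the anterior libraries and 23.6 and 20.4 CPM in emVE. Its groups did not overlap, and its log2 fold change of 1.77 (SE 0.44, adjusted p = 0.00701) was lost without emVE replicate 2 (adjusted p = 0.0608). Hoxa3, which is needed for the third pouch, had 6.32 and 8.27 CPM in the anterior libraries and 2.33 and 2.42 CPM in emVE, a log2 fold change of 1.62 (SE 0.24, adjusted p = 0.000279). Eya1, Isl1 and Hoxa3 were thus present in emVE and had some of the smaller changes of the 10. Gcm2 and Foxn1, factors of the later parathyroid and thymus, were too low to test. Gcm2 had 0.177 and 0 CPM in the anterior libraries and 0 and 0 CPM in emVE, and Foxn1 had 0.0884 and 0.0756 CPM in the anterior libraries and 0.0343 and 0.0913 CPM in emVE.

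**Figure D1:**
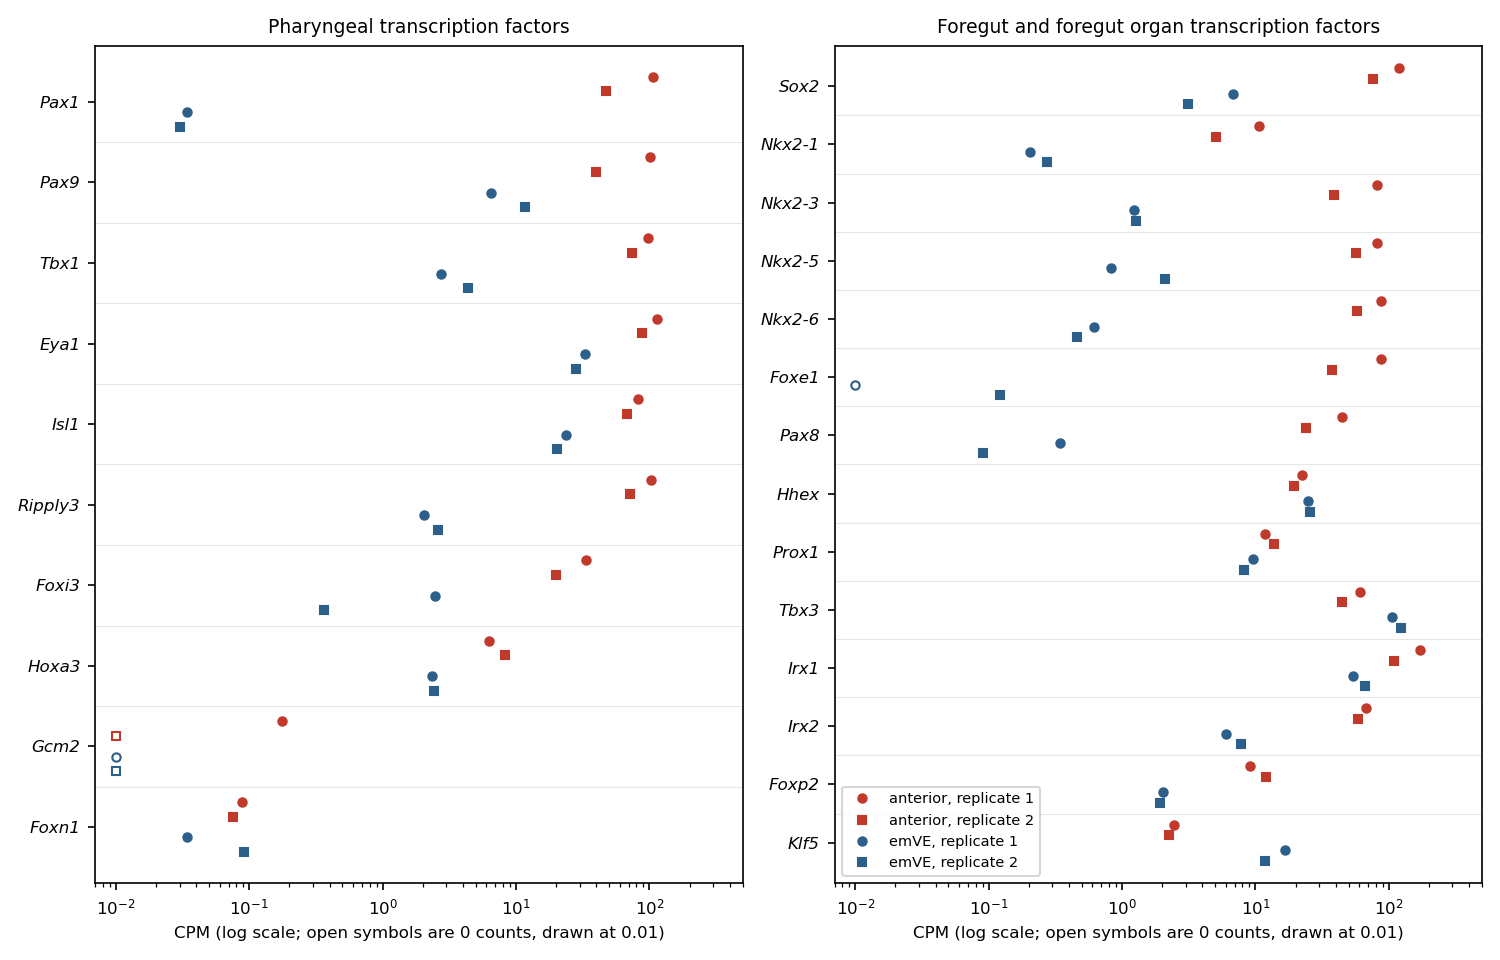
Levels in CPM on a log scale of the pharyngeal transcription factors reported here on the left and of foregut and foregut organ transcription factors on the right, with 1 symbol per library (red, anterior; blue, emVE; circle, replicate 1; square, replicate 2; open symbols are 0 counts). The anterior libraries lie to the right of emVE in the tested pharyngeal factors drawn and in 11 of 14 foregut factors, while Hhex, Tbx3 and Klf5 lie to the left.

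Factors of the foregut and its organs were less uniform. Of 14 members, 9 were called higher and 2 lower, with a median log2 fold change of 3.76. Against the posterior section, 9 were called higher in the anterior section and 0 lower. Foxe1, a thyroid and oral endoderm factor, had 87.6 and 37.4 CPM in the anterior libraries and 0 and 0.122 CPM in emVE. A single emVE library held any count, and the log2 fold change was 9.90 (SE 1.72, adjusted p = 0.000777). Pax8, a thyroid factor, had 44.4 and 23.8 CPM in the anterior libraries and 0.343 and 0.0913 CPM in emVE. Its anterior libraries lay far above emVE, with a log2 fold change of 7.31 (SE 1.34, adjusted p = 0.00114).

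The Nkx2 factors rose together in the anterior section. Nkx2-1, which specifies thyroid and lung, had 10.6 and 5.03 CPM in the anterior libraries and 0.206 and 0.274 CPM in emVE. The groups did not overlap, but the log2 fold change of 5.01 (SE 1.23, adjusted p = 0.00741) was not called without emVE replicate 1 (adjusted p = 0.0621) or without emVE replicate 2 (adjusted p = 0.0528). Nkx2-6, expressed in pharyngeal endoderm and the outflow of the heart, had 87.7 and 58.3 CPM in the anterior libraries and 0.617 and 0.457 CPM in emVE. This was the largest change among the 4 Nkx2 members, at 7.09 (SE 0.96, adjusted p = 0.000214). Nkx2-3, of pharyngeal and gut tissue, had 81.1 and 39.1 CPM in the anterior libraries and 1.23 and 1.28 CPM in emVE, a log2 fold change of 5.58 (SE 0.89, adjusted p = 0.000462). Nkx2-5, which acts in pharyngeal endoderm and heart muscle, had 81.4 and 56.4 CPM in the anterior libraries and 0.823 and 2.10 CPM in emVE, a log2 fold change of 5.55 (SE 1.06, adjusted p = 0.00143). It was higher in anterior replicate 1 than in replicate 2, and the summed heart genes were lower in replicate 1. The part of heart cells in its level was not tested.

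Sox2, the factor of the dorsal and anterior foregut, had 120.1 and 75.9 CPM in the anterior libraries and 6.75 and 3.11 CPM in emVE. Both emVE libraries were well below the anterior ones, with a log2 fold change of 4.32 (SE 0.50, adjusted p = 5.52e-05). Irx2, an Iroquois factor of foregut and lung, had 67.2 and 58.9 CPM in the anterior libraries and 6.00 and 7.73 CPM in emVE, and its log2 fold change was 3.20 (SE 0.47, adjusted p = 0.000259). Foxp2, a forkhead factor of lung and foregut epithelium, had 9.05 and 12.0 CPM in the anterior libraries and 2.02 and 1.92 CPM in emVE, and its log2 fold change was 2.42 (SE 0.26, adjusted p = 3.87e-05). All 3 rose without overlap.

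Hhex, Prox1 and Irx1 were not called. Hhex, a homeobox factor of anterior visceral endoderm and later of liver and thyroid, had 22.5 and 19.5 CPM in the anterior libraries and 25.0 and 25.6 CPM in emVE. The log2 fold change was -0.27 (95% interval -0.94 to 0.41, adjusted p = 0.514), and the anterior libraries lay just below emVE. Prox1, of liver and pancreas buds, had 11.7 and 13.7 CPM in the anterior libraries and 9.60 and 8.22 CPM in emVE, a log2 fold change of 0.51 (95% interval -0.02 to 1.04, adjusted p = 0.112). Irx1 had 173 and 109.8 CPM in the anterior libraries and 53.6 and 66.2 CPM in emVE, a log2 fold change of 1.24 (95% interval -0.02 to 2.49, adjusted p = 0.103). Both lay higher in the anterior libraries without passing the test. Tbx3, a T-box factor of visceral endoderm and liver bud, had 60.4 and 44.3 CPM in the anterior libraries and 106 and 123 CPM in emVE. It fell, with a log2 fold change of -1.13 (SE 0.24, adjusted p = 0.00265). Klf5, a Krüppel-like factor of gut and lung epithelium, had 2.44 and 2.27 CPM in the anterior libraries and 16.6 and 11.8 CPM in emVE. It fell as well, with a log2 fold change of -2.59 (SE 0.37, adjusted p = 0.000230).

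Signals of the pharyngeal endoderm rose in part. Of 12 members, 8 were called higher and 1 lower, with a median log2 fold change of 1.85; the count of higher members was between 5 and 8 with 1 library left out. Against the posterior section, 1 of the 12 was called higher in the anterior section and 2 lower. The rise over emVE was thus not shown to be particular to the anterior section. Cxcl12, the chemokine that guides neural crest and germ cells, had 213 and 153 CPM in the anterior libraries and 8.36 and 2.65 CPM in emVE. Its emVE libraries were low and unequal, and the log2 fold change was 5.06 (SE 0.58, adjusted p = 5.07e-05). Edn1, the endothelin that patterns the jaw arches, had 14.7 and 14.0 CPM in the anterior libraries and 0.480 and 0.578 CPM in emVE. This gave a log2 fold change of 4.75 (SE 0.61, adjusted p = 0.000107), with tight replicates in the anterior section. Bmp4 had 41.0 and 44.5 CPM in the anterior libraries and 4.80 and 3.43 CPM in emVE, and its log2 fold change was 3.38 (SE 0.27, adjusted p = 6.99e-06).

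The FGF ligands of the pouches rose, Fgf8 the most. Fgf8 had 54.5 and 37.3 CPM in the anterior libraries and 4.68 and 4.45 CPM in emVE. It rose by 3.33 (SE 0.65, adjusted p = 0.00166) on the log2 scale, and the groups did not overlap. Fgf3 had 28.5 and 14.3 CPM in the anterior libraries and 5.07 and 5.82 CPM in emVE, a log2 fold change of 1.97 (SE 0.69, adjusted p = 0.0375). Fgf15 had 17.5 and 9.39 CPM in the anterior libraries and 4.52 and 4.51 CPM in emVE, a log2 fold change of 1.57 (SE 0.56, adjusted p = 0.0399). For Fgf3 and Fgf15 anterior replicate 1 lay well above replicate 2, and each call was lost with 3 of the 4 libraries left out in turn: adjusted p was 0.207, 0.156 and 0.126 for Fgf3 without anterior replicate 1, emVE replicate 1 and emVE replicate 2, and 0.244, 0.142 and 0.145 for Fgf15. Jag1, a Notch ligand, had 149 and 128 CPM in the anterior libraries and 39.0 and 32.9 CPM in emVE, a log2 fold change of 1.95 (SE 0.37, adjusted p = 0.00147). Shh, the Hedgehog ligand of foregut endoderm and notochord, had 91.1 and 52.9 CPM in the anterior libraries and 18.7 and 24.1 CPM in emVE. Its log2 fold change of 1.75 (SE 0.44, adjusted p = 0.00750) was lost without anterior replicate 1 (adjusted p = 0.0689) and without emVE replicate 1 (adjusted p = 0.0671), and 12.7% of its exonic bases are shared with the predicted gene Gm26894 on the other strand.

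Chrd, a secreted BMP antagonist of node and axial tissue, had 14.2 and 6.82 CPM in the anterior libraries and 58.4 and 59.4 CPM in emVE. It was the sole member to fall, with a log2 fold change of -2.49 (SE 0.52, adjusted p = 0.00260). Nog, another BMP antagonist, had 13.7 and 10.2 CPM in the anterior libraries and 17.7 and 20.2 CPM in emVE, a log2 fold change of -0.67 (95% interval -1.63 to 0.29, adjusted p = 0.243). Bmp7 had 113 and 93.0 CPM in the anterior libraries and 62.6 and 88.8 CPM in emVE, a log2 fold change of 0.44 (95% interval -0.34 to 1.23, adjusted p = 0.347). Wnt11 had 3.41 and 5.08 CPM in the anterior libraries and 2.97 and 2.66 CPM in emVE, a log2 fold change of 0.59 (95% interval 0.03 to 1.16, adjusted p = 0.0856). These 3 were not called, and for Bmp7 the nearest anterior and emVE libraries were close to each other.

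The program of the early anterior endoderm divided in the anterior section. Of 17 members, 9 were called lower, 1 higher and 7 were not called, with a median log2 fold change of -0.82. The summed level of the 17 was 441 and 419.9 CPM in the anterior libraries and 1956 and 1870.0 CPM in emVE. The emVE label names no region, whereas the anterior libraries are a regional section of the tube. For a gene of the anterior part, a like CPM in both groups therefore does not show a like level per anterior cell. Among the secreted antagonists, Cer1, which blocks Nodal, BMP and Wnt, had 0.574 and 0.391 CPM in the anterior libraries and 317 and 251 CPM in emVE. It was nearly gone from the anterior section, with a log2 fold change of -9.19 (SE 1.19, adjusted p = 0.000116). Dkk1, which blocks the Wnt coreceptor, had 10.3 and 12.3 CPM in the anterior libraries and 84.3 and 72.1 CPM in emVE. It fell but stayed detectable in both anterior libraries, with a log2 fold change of -2.79 (SE 0.32, adjusted p = 5.21e-05).

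Lefty1, a Nodal inhibitor, was low in all 4 libraries, with 0 and 0.0504 CPM in the anterior libraries and 0.446 and 0.837 CPM in emVE. Its log2 fold change of -4.63 (SE 1.38, adjusted p = 0.0200) was lost without anterior replicate 1 (adjusted p = 0.121) and without emVE replicate 2 (adjusted p = 0.0812). Lefty2, its near-identical paralog, had 0.0442 and 0.176 CPM in the anterior libraries and 7.99 and 10.7 CPM in emVE, and reads of the pair can be split uncertainly between them.

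The secreted Frizzled-related proteins, which bind Wnt ligands, were not called. Sfrp1 had 55.7 and 139 CPM in the anterior libraries and 173 and 148 CPM in emVE. The lower anterior library was replicate 1, and the log2 fold change was -0.72 (95% interval -2.11 to 0.67, adjusted p = 0.388). Frzb had 57.4 and 36.7 CPM in the anterior libraries and 60.3 and 60.7 CPM in emVE, a log2 fold change of -0.36 (95% interval -1.17 to 0.44, adjusted p = 0.456). Sfrp5, a marker of anterior visceral endoderm and ventral foregut, had 1.21 and 13.5 CPM in the anterior libraries and 4.59 and 6.79 CPM in emVE. One anterior library lay below and the other above both emVE libraries; the log2 fold change was 0.37 (95% interval -1.33 to 2.07, adjusted p = 0.732), and without anterior replicate 2 it was −2.22 (adjusted p = 0.0237). Shisa2, which holds back Wnt and FGF receptors, had 109 and 86.8 CPM in the anterior libraries and 78.4 and 70.2 CPM in emVE. Its anterior libraries lay slightly above emVE, and the log2 fold change was 0.40 (95% interval -0.47 to 1.27, adjusted p = 0.445).

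Of the transcription factors in this program, Lhx1, Hesx1 and Foxa2 fell. Lhx1, a LIM factor of the anterior visceral endoderm and axial mesendoderm, had 0.895 and 1.75 CPM in the anterior libraries and 59.1 and 52.0 CPM in emVE. Both anterior libraries were near 1 CPM, and the log2 fold change was -5.40 (SE 0.84, adjusted p = 0.000388). Hesx1, a repressor of the anterior visceral endoderm and pituitary, had 4.56 and 2.71 CPM in the anterior libraries and 25.5 and 21.3 CPM in emVE, a log2 fold change of -2.69 (SE 0.50, adjusted p = 0.00117). Foxa2, a forkhead factor of all early endoderm, had 29.8 and 17.2 CPM in the anterior libraries and 137 and 153 CPM in emVE, a log2 fold change of -2.62 (SE 0.41, adjusted p = 0.000384).

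Otx2, the head organizer and anterior endoderm factor, did not fall to a called extent. It had 79.6 and 43.6 CPM in the anterior libraries and 98.0 and 76.5 CPM in emVE. The ranges of the groups overlapped, and the log2 fold change was -0.50 (95% interval -2.72 to 1.72, adjusted p = 0.721), an interval wide enough to hold a several-fold change in either direction. In the posterior section of 13-somite gut tubes Otx2 averaged 0.507 ± 0.00758 CPM (SD, n = 2), and the anterior section was higher than the posterior by 6.92 (SE 1.36, adjusted p = 0.00889) on the log2 scale. Gsc, a homeobox factor of organizer and prechordal tissue, had 2.19 and 1.16 CPM in the anterior libraries and 0.926 and 0.335 CPM in emVE. It was low in both groups, with a log2 fold change of 1.41 (95% interval -0.41 to 3.23, adjusted p = 0.194). Hhex, described above, was the other factor not called.

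The receptors and hormones also differed. Fzd5, a Wnt receptor of the anterior visceral endoderm, had 20.7 and 16.8 CPM in the anterior libraries and 127 and 90.1 CPM in emVE. It fell, with a log2 fold change of -2.53 (SE 0.24, adjusted p = 1.67e-05). Fzd8 had 19.7 and 15.1 CPM in the anterior libraries and 35.3 and 26.3 CPM in emVE. Its smaller log2 fold change of -0.82 (SE 0.22, adjusted p = 0.0115) was lost without anterior replicate 2 (adjusted p = 0.110) and without emVE replicate 1 (adjusted p = 0.114). Trh, which encodes thyrotropin-releasing hormone and marks early anterior definitive endoderm, had 11.7 and 5.46 CPM in the anterior libraries and 730.1 and 815 CPM in emVE. It fell strongly, with a log2 fold change of -6.49 (SE 0.77, adjusted p = 6.49e-05). Pyy, which encodes the gut hormone peptide YY, had 15.2 and 7.69 CPM in the anterior libraries and 0.137 and 0.213 CPM in emVE. It was the sole member of the program to rise, with a log2 fold change of 6.01 (SE 0.81, adjusted p = 0.000202).

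**Figure D2:**
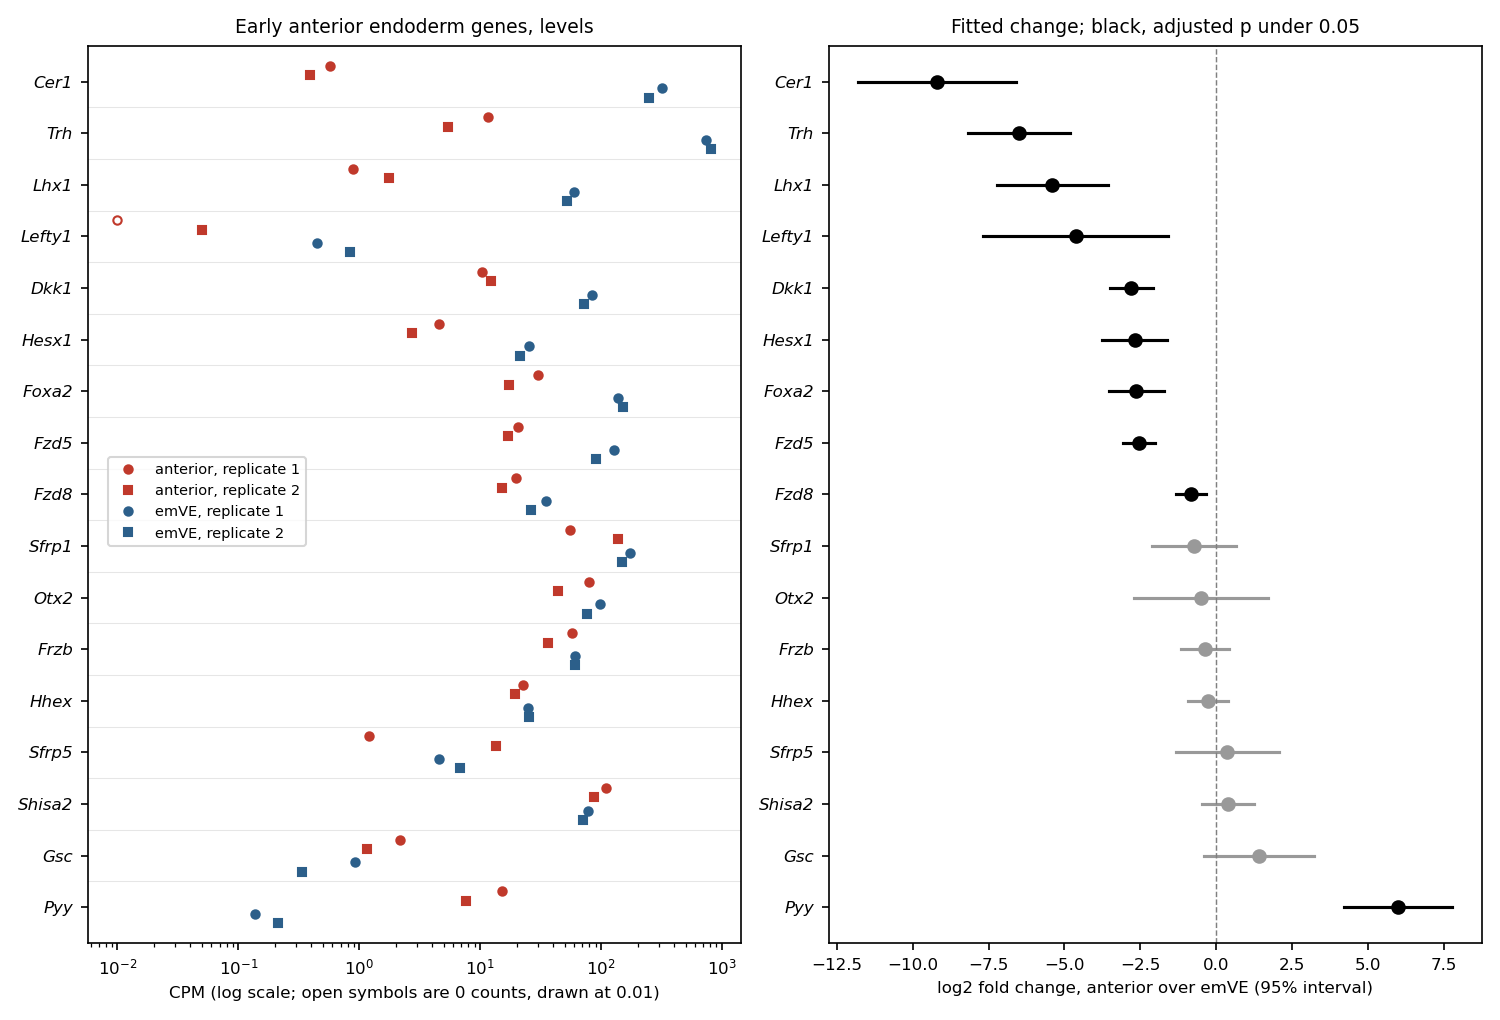
Early anterior endoderm genes, ordered by log2 fold change: on the left the CPM of each library on a log scale (red, anterior; blue, emVE; open symbol, 0 counts), on the right the log2 fold change of anterior over emVE with its 95% interval (black, adjusted p under 0.05; grey, not called). Cer1 and Trh lie farthest to the left of 0, 7 members from Sfrp1 to Gsc have intervals that span 0, and Pyy lies to the right.

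Within the gut tube, several of these genes still differed along its length. Hesx1, called lower than in emVE, was higher in the anterior than in the posterior section by 4.09 (SE 0.56, adjusted p = 0.00110) on the log2 scale, against 0.212 ± 0.162 CPM in the posterior section. Fzd5 was higher there by 1.67 (SE 0.24, adjusted p = 0.00130), with 5.89 ± 0.0598 CPM in the posterior section. Shisa2 was higher by 2.41 (SE 0.42, adjusted p = 0.00429), with 18.4 ± 1.66 CPM in the posterior section, and Sfrp5 by 4.96 (SE 1.01, adjusted p = 0.0107), with 0.235 ± 0.0479 CPM. Dkk1 and Foxa2 were lower in the anterior than in the posterior section, with log2 differences of -1.36 (SE 0.31, adjusted p = 0.0177) and -1.48 (SE 0.39, adjusted p = 0.0400). The anterior libraries serve both comparisons, so the changes are given side by side and not as separate evidence.

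General definitive endoderm genes were mostly lower in the anterior section than in emVE. Of 12 members, 8 were called lower, 1 (Pyy) higher and 3 were not called, with a median log2 fold change of -2.55. Sox17, an endoderm-inducing factor, had 25.4 and 15.2 CPM in the anterior libraries and 137 and 139 CPM in emVE. It fell without overlap, with a log2 fold change of -2.77 (SE 0.28, adjusted p = 2.24e-05). Foxa3, a forkhead factor of more posterior endoderm and liver, had 1.51 and 0.983 CPM in the anterior libraries and 30.6 and 32.5 CPM in emVE, a log2 fold change of -4.66 (SE 0.45, adjusted p = 1.87e-05).

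The gene Cpm, which encodes carboxypeptidase M, had 47.3 and 40.2 CPM in the anterior libraries and 287 and 308 CPM in emVE, a log2 fold change of -2.77 (SE 0.30, adjusted p = 3.87e-05). Gata4, a GATA factor of endoderm and heart, had 12.2 and 52.4 CPM in the anterior libraries and 164 and 193 CPM in emVE. Anterior replicate 2, which was also higher in heart genes, held most of its anterior level, and the part of heart cells was not tested. The Gata4 log2 fold change of -2.47 (SE 0.78, adjusted p = 0.0245) was lost without anterior replicate 1 (adjusted p = 0.148), emVE replicate 1 (adjusted p = 0.0579) and emVE replicate 2 (adjusted p = 0.0801). Cxcr4, the receptor for Cxcl12, had 21.4 and 13.3 CPM in the anterior libraries and 27.4 and 36.7 CPM in emVE. Its log2 fold change of -0.89 (SE 0.26, adjusted p = 0.0151) was lost without anterior replicate 2 (adjusted p = 0.146) and emVE replicate 2 (adjusted p = 0.129).

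Foxa1, the forkhead paralog of Foxa2, had 85.8 and 51.8 CPM in the anterior libraries and 103 and 111 CPM in emVE. The anterior libraries lay below emVE without a call, at -0.64 (95% interval -1.34 to 0.06, adjusted p = 0.129). Gata6 had 30.7 and 60.0 CPM in the anterior libraries and 42.3 and 47.6 CPM in emVE, a log2 fold change of 0.01 (95% interval -0.67 to 0.69, adjusted p = 0.983). Nepn, a marker of midgut endoderm, had 1.13 and 4.44 CPM in the anterior libraries and 1.51 and 3.44 CPM in emVE, a log2 fold change of 0.15 (95% interval -0.99 to 1.29, adjusted p = 0.839). The groups overlapped for Gata6 and Nepn. Nepn averaged 103 ± 29.5 CPM (SD, n = 2) in the posterior section.

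The visceral endoderm program was lower throughout. All 22 listed genes were called lower in the anterior section, with a median log2 fold change of -7.54, or -7.12 with Apoc2, which had 0 counts in both anterior libraries, set at its bound of at least 65.2-fold lower. Hnf4a, the nuclear receptor that drives the secretory program, had 0.221 and 1.03 CPM in the anterior libraries and 261 and 289 CPM in emVE. It was nearly absent from the anterior section, with a log2 fold change of -8.80 (SE 0.94, adjusted p = 3.27e-05). Mttp, which loads lipid onto apolipoprotein B, had 14.1 and 14.0 CPM in the anterior libraries and 543 and 572 CPM in emVE, a log2 fold change of -5.31 (SE 0.48, adjusted p = 1.35e-05). Spink1, a trypsin inhibitor, had 19.8 and 11.1 CPM in the anterior libraries and 494 and 517 CPM in emVE, a log2 fold change of -5.03 (SE 0.67, adjusted p = 0.000143). Lrp2, the endocytic receptor megalin, stayed detectable, with 83.0 and 98.5 CPM in the anterior libraries and 406 and 362 CPM in emVE. The log2 fold change of -2.08 (SE 0.26, adjusted p = 0.000102) was smaller than that of the other 3. Afp, which encodes alpha-fetoprotein and lends its elements to the reporter, had 2.33 and 8.57 CPM in the anterior libraries and 667 and 851 CPM in emVE; it was added after its values were seen because its promoter is shown. Its log2 fold change was -7.13 (SE 1.16, adjusted p = 0.000503).

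The 12 largest decreases among genes whose emVE libraries averaged 3 or more in log2 CPM held 3 genes of the visceral endoderm list, Cubn, Apoa1 and Apoa4. The other 9 included Prodh2, a hydroxyproline dehydrogenase, with 0 and 0 CPM in the anterior libraries and 10.1 and 10.7 CPM in emVE, and Cyp2b23, a cytochrome P450, with 0 and 0 CPM in the anterior libraries and 10.0 and 9.55 CPM in emVE. With 0 counts in the anterior section, Prodh2 was at least 589-fold lower and Cyp2b23 at least 554-fold lower. Cubn, the vitamin B12 and albumin receptor cubilin, had 3.64 and 2.96 CPM in the anterior libraries and 3284 and 3329.6 CPM in emVE, a log2 fold change of -9.97 (SE 1.84, adjusted p = 0.00116). Apoa1 and Apoa4, apolipoproteins of lipid transport, had log2 fold changes of -9.77 (SE 1.80, adjusted p = 0.00117) and -10.30 (SE 2.15, adjusted p = 0.00248). The transporters among them had log2 fold changes of -10.13 (SE 1.63, adjusted p = 0.000467) for the glucose transporter Slc2a2, -10.70 (SE 1.10, adjusted p = 2.60e-05) for the nucleoside transporter Slc28a2 and -11.27 (SE 1.76, adjusted p = 0.000391) for the export pump Abcc2. The remaining 4 were Triml1 (-10.21 (SE 1.09, adjusted p = 3.34e-05)), Pilra (-9.96 (SE 1.30, adjusted p = 0.000121)), Fmr1nb (-9.88 (SE 1.34, adjusted p = 0.000149)) and Smlr1 (-9.80 (SE 2.12, adjusted p = 0.00311)), and 15.1% of the exonic bases of Pilra are shared with Zcwpw1. In each of these 12 genes the anterior libraries were under 4 CPM.

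Lysosomal genes, abundant in the absorptive visceral endoderm, were lower in 13 of 17 cases and higher in 1, Scarb2, with a median log2 fold change of -1.65. Ctsc, cathepsin C, had 9.28 and 10.5 CPM in the anterior libraries and 370.0 and 376 CPM in emVE, a log2 fold change of -5.24 (SE 0.52, adjusted p = 2.18e-05). Ctsb, cathepsin B, had 89.8 and 100.1 CPM in the anterior libraries and 778 and 907 CPM in emVE, a log2 fold change of -3.15 (SE 0.33, adjusted p = 2.63e-05). The membrane protein Lamp1 (-1.56 (SE 0.16, adjusted p = 2.62e-05)) and the cholesterol exporter Npc1 (-1.70 (SE 0.15, adjusted p = 1.04e-05)) changed less.

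Junction and keratin genes differed by gene. Of 16, 5 were called lower and 1 higher, with a median log2 fold change of -0.40, and their sum was 2778 and 1926 CPM in the anterior libraries and 4254 and 4499 CPM in emVE. Cdh1, E-cadherin, had 286 and 181 CPM in the anterior libraries and 935 and 869 CPM in emVE, a log2 fold change of -1.95 (SE 0.29, adjusted p = 0.000306). Cldn6, a tight junction claudin, had 358 and 222 CPM in the anterior libraries and 813 and 931 CPM in emVE; its log2 fold change of -1.59 (SE 0.39, adjusted p = 0.00675) was lost without anterior replicate 2 (adjusted p = 0.0703). Krt8, a simple epithelial keratin, had a log2 fold change of -1.04 (SE 0.23, adjusted p = 0.00343), and the splicing regulator Esrp2 one of -1.41 (SE 0.29, adjusted p = 0.00231). In contrast to the visceral endoderm genes, 10 of the 16 were not called. The share called, 37.5%, was near the 42.4% of all genes tested.

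The emVE libraries held genes of the node and of gastrulating cells that were lower in the anterior section. Of 10 node and notochord genes, 8 were called lower and 1 (Shh) higher, with a median log2 fold change of -2.51 and sums of 225 and 142 CPM in the anterior libraries and 929 and 927 CPM in emVE. Foxj1, which builds motile cilia, had 3.89 and 2.42 CPM in the anterior libraries and 203 and 201 CPM in emVE, a log2 fold change of -6.001 (SE 0.47, adjusted p = 6.15e-06). T, the notochord factor Brachyury, had 54.8 and 29.3 CPM in the anterior libraries and 393 and 379.9 CPM in emVE, a log2 fold change of -3.20 (SE 0.47, adjusted p = 0.000257). Both stood far higher in emVE, a label that names no axial tissue. Bicc1, an RNA-binding protein of the node, had 24.2 and 24.3 CPM in the anterior libraries and 116 and 119 CPM in emVE, a log2 fold change of -2.27 (SE 0.26, adjusted p = 4.60e-05). Nodal, the TGF-beta ligand of gastrulation, had 0.287 and 0.328 CPM in the anterior libraries and 10.6 and 9.50 CPM in emVE, a log2 fold change of -5.03 (SE 0.44, adjusted p = 1.04e-05).

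Of 15 epiblast and nascent mesoderm genes, 13 were called lower and 0 higher, with a median log2 fold change of -5.03. Their sum was 156 and 152 CPM in the anterior libraries and 840.4 and 625 CPM in emVE. Eomes, a T-box factor of mesendoderm and visceral endoderm, had 0.265 and 0.555 CPM in the anterior libraries and 37.7 and 36.7 CPM in emVE, a log2 fold change of -6.51 (SE 0.42, adjusted p = 2.70e-06). Mixl1, of the primitive streak, had 0.0884 and 0.0252 CPM in the anterior libraries and 12.8 and 9.41 CPM in emVE, a log2 fold change of -7.53 (SE 0.76, adjusted p = 2.26e-05). Dnmt3b, a DNA methyltransferase, had 138 and 131 CPM in the anterior libraries and 528 and 394 CPM in emVE, a log2 fold change of -1.78 (SE 0.14, adjusted p = 7.01e-06). No listed member was at 0 in both emVE libraries, and the part of node and mesoderm RNA in the emVE levels was not tested.

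Genes of more posterior endoderm were not gained. Of 10 tested liver and pancreas bud genes, 5 were called lower and 0 higher (median -1.13). Pdx1, the pancreas and duodenum factor, had 0.0221 and 0.126 CPM in the anterior libraries and 2.61 and 3.23 CPM in emVE, a log2 fold change of -5.31 (SE 0.70, adjusted p = 0.000127). Of 8 midgut and hindgut genes, 3 were called lower and 0 higher (median -1.41). Cdx2, the posterior gut factor, had 0.685 and 0.933 CPM in the anterior libraries and 47.4 and 63.8 CPM in emVE. Its log2 fold change was -6.11 (SE 0.29, adjusted p = 1.17e-06), and the posterior section averaged 265 ± 79.9 CPM (SD, n = 2). Cdx1 had 2.09 and 2.28 CPM in the anterior libraries and 23.2 and 29.0 CPM in emVE, a log2 fold change of -3.58 (SE 0.40, adjusted p = 4.74e-05). Evx1, a homeobox factor of the streak and hindgut, had 0.0221 and 0.252 CPM in the anterior libraries and 15.9 and 18.3 CPM in emVE, a log2 fold change of -6.998 (SE 0.67, adjusted p = 1.70e-05).

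Hox genes encode the position along the body axis, low paralog groups toward the head and high groups toward the tail. Of 12 tested Hox genes of groups 1 to 4, 7 were called higher and 0 lower in the anterior section, with a median log2 fold change of 1.80, or 1.39 with genes at 0 set at their bound. Against the posterior section, 1 of these 12 was called higher in the anterior section and 6 lower. Hoxb3 had 23.6 and 30.0 CPM in the anterior libraries and 5.21 and 4.66 CPM in emVE, a log2 fold change of 2.44 (SE 0.29, adjusted p = 7.31e-05). Hoxb2 had 32.2 and 47.7 CPM in the anterior libraries and 8.81 and 8.25 CPM in emVE, a log2 fold change of 2.23 (SE 0.39, adjusted p = 0.000874). In both the groups were well apart. Hoxa2, Hoxb4 and Hoxc4 also rose, by 2.98 (SE 0.51, adjusted p = 0.000691), 1.99 (SE 0.41, adjusted p = 0.00249) and 3.20 (SE 0.44, adjusted p = 0.000169), as did Hoxa3 above. Hoxb1 had 29.1 and 32.6 CPM in the anterior libraries and 45.6 and 37.8 CPM in emVE, and its log2 fold change was -0.44 (95% interval -1.06 to 0.19, adjusted p = 0.245). Hoxd1, Hoxd3, Hoxa4 and Hoxd4 were under 3 CPM in every library and were not called; without anterior replicate 2, Hoxa4 was called lower at −1.82 (adjusted p = 0.0365).

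Of 11 Hox genes of groups 5 to 8, 3 were called higher and 1 lower (median 1.504, or 1.27 with bounds). All 11 were called lower in the anterior than in the posterior section. Hoxb5 had 0.641 and 2.24 CPM in the anterior libraries and 0 and 0.244 CPM in emVE, a log2 fold change of 3.48 (SE 1.05, adjusted p = 0.0195). Hoxc5 had 0.0221 and 1.05 CPM in the anterior libraries and 0 and 0 CPM in emVE. The mean of its anterior libraries was at least 22.1-fold higher, which rested on anterior replicate 2. Anterior replicate 1 was below the emVE floor of 0.0242 CPM. Hoxc8 had 0.0884 and 0.126 CPM in the anterior libraries and 0 and 0 CPM in emVE, at least 4.43-fold higher. Hoxa7 had 0.110 and 0.429 CPM in the anterior libraries and 0.994 and 1.25 CPM in emVE, a log2 fold change of -2.09 (SE 0.71, adjusted p = 0.0331). All 4 calls were lost with a library left out: the adjusted p was 0.156 and 0.111 for Hoxb5 without anterior replicate 2 and emVE replicate 1, 0.167, 0.0783 and 0.0872 for Hoxc5 and 0.0697, 0.0758 and 0.0876 for Hoxc8 without anterior replicate 2 and each emVE library, and 0.210, 0.0703 and 0.129 for Hoxa7 without anterior replicate 1 and each emVE library. Hoxb6, not called with all libraries at -1.04 (95% interval -2.21 to 0.14, adjusted p = 0.142), was called lower at −1.72 without emVE replicate 1 (adjusted p = 0.00708).

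The other members of groups 5 to 8 were not called. Hoxa5 had 0.607 and 1.92 CPM in the anterior libraries and 0.480 and 0.487 CPM in emVE, Hoxb7 had 0.133 and 0.214 CPM in the anterior libraries and 0.206 and 0.578 CPM in emVE, and Hoxb8 had 0.221 and 0.618 CPM in the anterior libraries and 0.103 and 0.183 CPM in emVE. Hoxa6, Hoxc6 and Hoxd8 were near 0 in both groups. None reached 2 CPM in any of the 4 libraries.

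Of 14 tested Hox genes of groups 9 to 13, 0 were called higher and 2 lower (median -0.99). Against the posterior section, 12 of these 14 were called lower in the anterior section and 0 higher. Hoxa13 had 0 and 0.0504 CPM in the anterior libraries and 0.994 and 0.335 CPM in emVE, a log2 fold change of -4.69 (SE 1.24, adjusted p = 0.00975). Hoxc13 had 0 and 0.0252 CPM in the anterior libraries and 0.171 and 0.792 CPM in emVE, a log2 fold change of -5.15 (SE 1.24, adjusted p = 0.00587). All members of these groups were under 1 CPM in each of the 4 libraries, and Hoxc11, Hoxc12 and Hoxd12 had 0 counts throughout. Hoxa13 was not called without anterior replicate 1 (adjusted p = 0.0729) or emVE replicate 1 (adjusted p = 0.0652), nor Hoxc13 without anterior replicate 1 (adjusted p = 0.0526) or emVE replicate 2 (adjusted p = 0.0608). Neighbouring Hox transcripts overlap. Of the exonic bases of Hoxb3 52.9%, and of those of Hoxb2 27.3%, are shared with Hoxb3os on the other strand, and as the strandedness of the counts is not given, reads of the overlap cannot be told apart. Likewise 53.1% of the exonic bases of Hoxd3 and 39.1% of Hoxd4 are shared with a predicted gene, as are 267 of 1775 in Hoxa2.

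**Figure D3:**
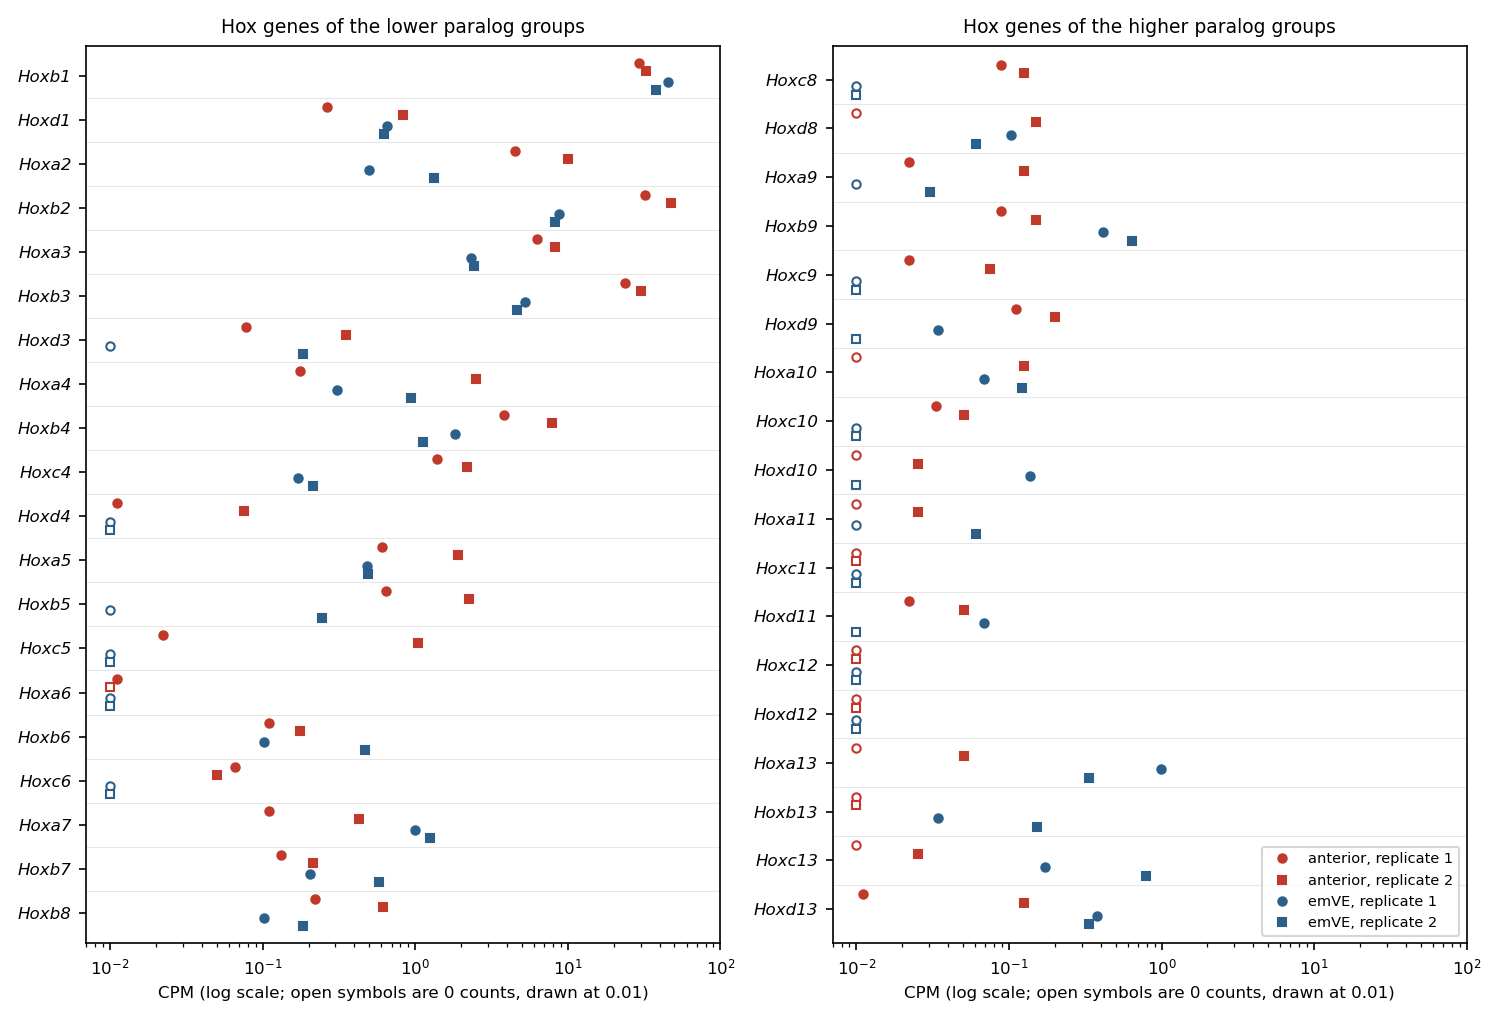
Levels of Hox genes in CPM on a log scale, from the lowest paralog group at the top left to the highest at the bottom right, with 1 symbol per library (red, anterior; blue, emVE; circle, replicate 1; square, replicate 2; open symbols are 0 counts). The anterior libraries lie to the right of emVE in Hoxb2 and Hoxb3, while all genes of groups 9 to 13 stay under 1 CPM in both groups.

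Signalling genes changed by pathway member. Retinoic acid, made in mesoderm, sets position in the foregut and turns on Hox genes. Of its 13 genes, 5 were called higher and 2, Dhrs3 and Cyp26a1, lower (median 0.17). Crabp2, a carrier that brings retinoic acid to its receptors, had 249 and 264 CPM in the anterior libraries and 19.2 and 17.1 CPM in emVE, a log2 fold change of 3.82 (SE 0.21, adjusted p = 1.44e-06). Cyp26b1, which breaks retinoic acid down, had 15.1 and 18.0 CPM in the anterior libraries and 0.137 and 0.365 CPM in emVE, a log2 fold change of 6.01 (SE 0.69, adjusted p = 5.40e-05). Rarb, a receptor that is itself a target, had 74.0 and 62.1 CPM in the anterior libraries and 9.98 and 13.1 CPM in emVE. The log2 fold change was 2.56 (SE 0.27, adjusted p = 3.28e-05), and 34.1% of its exonic bases are shared with Top2b on the other strand. Crabp1, a carrier of neural crest and hindbrain, had 102 and 349 CPM in the anterior libraries and 14.5 and 22.3 CPM in emVE, a log2 fold change of 3.62 (SE 0.67, adjusted p = 0.00120). Its level and the summed neural crest genes were both higher in anterior replicate 2, and the part of crest cells in its level was not tested.

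Of 19 FGF ligands, receptors and targets, 9 were called higher and 4 lower (median 0.59). Besides Fgf3, Fgf8 and Fgf15, Fgf10, the ligand of lung budding, had 21.6 and 29.3 CPM in the anterior libraries and 3.68 and 3.74 CPM in emVE, a log2 fold change of 2.78 (SE 0.51, adjusted p = 0.00117). The receptor Fgfr4 had 1.31 and 2.37 CPM in the anterior libraries and 47.2 and 52.5 CPM in emVE, a log2 fold change of -4.76 (SE 0.34, adjusted p = 4.19e-06). The epiblast ligand Fgf5 (-2.87 (SE 0.47, adjusted p = 0.000553)) and the feedback inhibitor Spry4 (-1.70 (SE 0.24, adjusted p = 0.000180)) fell too. Among the other receptors and targets, Spry2, Dusp6 and Il17rd were called higher and Fgfr3 lower. Fgfr1, Fgfr2, Spry1, Etv4 and Etv5 were not called.

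Of 23 Wnt genes, 4 were called higher and 8 lower (median -0.85). Wnt4 had 6.93 and 13.9 CPM in the anterior libraries and 0.634 and 0.731 CPM in emVE, a log2 fold change of 3.93 (SE 0.57, adjusted p = 0.000229). Wnt8a, a ligand of the primitive streak, had 0.0110 and 0.176 CPM in the anterior libraries and 11.2 and 7.37 CPM in emVE, a log2 fold change of -6.64 (SE 0.92, adjusted p = 0.000241). Lgr5, a receptor for R-spondins and a Wnt target, had 6.25 and 4.82 CPM in the anterior libraries and 30.0 and 29.4 CPM in emVE, a log2 fold change of -2.42 (SE 0.33, adjusted p = 0.000171). The targets Axin2, Lef1, Tcf7 and Nkd1 were among the 8 lower members, with Dkk1 and Rspo3.

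Of 20 tested Nodal and BMP genes, 8 were called higher and 7 lower (median 0.40). Id3, an inhibitor of helix-loop-helix factors and a BMP target, had 279.9 and 333 CPM in the anterior libraries and 105 and 122 CPM in emVE, a log2 fold change of 1.43 (SE 0.14, adjusted p = 2.10e-05). Id1, Id2, Id4, Smad6, Smad7 and Bambi were the other higher members besides Bmp4. The lower members were Nodal, Lefty1, Lefty2, Bmp2, Msx1, Msx2 and Chrd. The ligand Bmp2 had 4.20 and 9.29 CPM in the anterior libraries and 63.1 and 58.8 CPM in emVE, a log2 fold change of -3.18 (SE 0.31, adjusted p = 1.96e-05). It fell where Bmp4 rose.

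Of 14 Hedgehog genes, 6 were called higher and 1 lower (median 0.63). Ihh, the ligand of visceral endoderm, had 0.928 and 1.42 CPM in the anterior libraries and 29.8 and 43.1 CPM in emVE, a log2 fold change of -4.96 (SE 0.41, adjusted p = 8.45e-06). It fell where Shh rose. Gli3, a transcription factor of the pathway, had 121 and 117 CPM in the anterior libraries and 47.0 and 46.2 CPM in emVE, a log2 fold change of 1.35 (SE 0.31, adjusted p = 0.00450), and the coreceptor Gas1 had 2.19 (SE 0.43, adjusted p = 0.00176). Dhh had 0.309 and 0.227 CPM in the anterior libraries and 0 and 0.0304 CPM in emVE, under 1 CPM in each library, with a log2 fold change of 3.93 (SE 0.94, adjusted p = 0.00578); 12.4% of its exonic bases are shared with Rhebl1. The targets Ptch1, Gli1 and Hhip were not called.

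Of 15 Notch genes, 8 were called higher and 3 lower (median 1.23). Dll4, a ligand of vessel endothelium, had 24.2 and 18.8 CPM in the anterior libraries and 0.137 and 0.548 CPM in emVE, a log2 fold change of 5.94 (SE 0.80, adjusted p = 0.000144). The targets Hey1 and Hey2 had log2 fold changes of 1.88 (SE 0.17, adjusted p = 1.44e-05) and 3.45 (SE 0.53, adjusted p = 0.000328). Dll3, a ligand of the streak and presomitic mesoderm, had 0.884 and 1.15 CPM in the anterior libraries and 20.2 and 18.7 CPM in emVE, a log2 fold change of -4.26 (SE 0.49, adjusted p = 5.38e-05). Several of these genes are also expressed in vessels and heart, whose markers rose as described next, and the part of those cells in the pathway changes was not tested.

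The labels name no sort for the anterior section, and markers of other cell types were higher in it. Endothelial genes summed to 572 and 521 CPM in the anterior libraries and 28.7 and 46.1 CPM in emVE, and 11 of 12 were called higher (median 4.85). Emcn, an endothelial mucin, had 42.4 and 33.8 CPM in the anterior libraries and 0 and 0 CPM in emVE, at least 1575-fold higher. Pecam1, Tie1 and Cldn5 had log2 fold changes of 4.63 (SE 0.47, adjusted p = 2.51e-05), 6.78 (SE 0.62, adjusted p = 1.40e-05) and 6.77 (SE 0.58, adjusted p = 1.04e-05). Blood genes summed to 1092 and 1096 CPM in the anterior libraries and 34.9 and 40.1 CPM in emVE, with 9 of 11 called higher and Runx1 lower (median 3.37). The embryonic globins Hba-x and Hbb-y had 0 counts in both emVE libraries and were at least 11869.6-fold and 9286-fold higher. Hbb-bh1, a related globin gene near Hbb-y with which it may share reads, had 489 and 545 CPM in the anterior libraries and 2.97 and 5.12 CPM in emVE, a log2 fold change of 6.996 (SE 0.44, adjusted p = 2.35e-06).

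Heart genes summed to 816 and 1442 CPM in the anterior libraries and 77.3 and 81.3 CPM in emVE, with 11 of 14 called higher (median 3.88). Tnnt2, cardiac troponin T, had 71.7 and 119 CPM in the anterior libraries and 0.446 and 1.32 CPM in emVE, a log2 fold change of 6.73 (SE 1.09, adjusted p = 0.000502). Mef2c had 4.05 (SE 0.35, adjusted p = 1.04e-05), Ttn 5.88 (SE 0.80, adjusted p = 0.000154) and Tnni1 5.54 (SE 0.91, adjusted p = 0.000551). In all 4 anterior replicate 2 was the higher library. Splanchnic mesoderm and mesenchyme genes summed to 184 and 317 CPM in the anterior libraries and 94.3 and 101 CPM in emVE, with 8 of 10 called higher (median 3.31). Foxf1, a Hedgehog-responsive factor of gut mesoderm, had 32.4 and 44.0 CPM in the anterior libraries and 2.43 and 4.23 CPM in emVE, a log2 fold change of 3.51 (SE 0.73, adjusted p = 0.00246). Col3a1 had 9.12 (SE 1.43, adjusted p = 0.000407), Osr1 6.73 (SE 0.64, adjusted p = 1.71e-05) and Barx1, of stomach mesenchyme, 4.43 (SE 0.97, adjusted p = 0.00342).

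Neural crest genes summed to 131 and 296 CPM in the anterior libraries and 71.5 and 72.3 CPM in emVE, with 5 of 9 called higher and 1, Sox9, lower (median 3.46). Sox10, the crest and glia factor, had 1.70 and 23.1 CPM in the anterior libraries and 0.206 and 0.0304 CPM in emVE. Anterior replicate 2 held most of its level, and the log2 fold change was 6.73 (SE 1.38, adjusted p = 0.00225). Tfap2a and Ets1 had 5.11 (SE 0.82, adjusted p = 0.000450) and 3.46 (SE 0.54, adjusted p = 0.000380), and Sox9 had -1.20 (SE 0.26, adjusted p = 0.00317). Neural tube genes summed to 303 and 328 CPM in the anterior libraries and 118 and 104 CPM in emVE, with 8 of 12 called higher and 1 lower (median 2.03, or 1.80 with Olig2 at its bound). Pax6 (3.75 (SE 0.63, adjusted p = 0.000672)), Nes (1.73 (SE 0.27, adjusted p = 0.000426)), Neurog2 (6.50 (SE 1.23, adjusted p = 0.00169)) and Hes5 (2.21 (SE 0.54, adjusted p = 0.00606)) were among them. Surface ectoderm genes were called higher in 4 of 8 cases and lower in 1 (median 2.27), with Trp63 at 5.86 (SE 0.64, adjusted p = 5.81e-05), Krt15 at 3.83 (SE 0.58, adjusted p = 0.000319) and Grhl3 at -2.33 (SE 0.48, adjusted p = 0.00224); Dlx3, at 2.09 (SE 0.59, adjusted p = 0.0134), was not called without emVE replicate 1 (adjusted p = 0.108).

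Paraxial mesoderm genes were called higher in 3 of 11 cases and lower in 1 (median 1.45). Tbx18 had 4.12 (SE 0.86, adjusted p = 0.00257), and Tbx6, of presomitic mesoderm, -6.14 (SE 0.73, adjusted p = 6.64e-05). Nkx3-2 was at 0 in emVE and at least 19.0-fold higher. Meox2, at 3.83 (SE 1.39, adjusted p = 0.0463), was not called with any 1 of the 4 libraries left out (adjusted p = 0.0610, 0.165, 0.201 and 0.122 without anterior replicates 1 and 2 and emVE replicates 1 and 2). Over the 6 lists of endothelium, blood, neural crest, neural tube, paraxial mesoderm and surface ectoderm, the members at 0 in both emVE libraries were Emcn, 3 blood genes, Tfap2b, Olig2, Nkx3-2 and 0 of the surface ectoderm genes. No member of these lists was at 0 in both anterior libraries. The part of these cells in the pharyngeal and foregut changes was not tested. Isl1, Nkx2-5, Tbx1 and Eya1 are also expressed in heart field, crest or mesoderm cells. Their levels were higher in anterior replicate 1, as were those of Pax1, Pax9, Foxe1 and Pax8. The heart and crest sums were higher in anterior replicate 2. The order of 2 libraries cannot tell which cells held these genes.

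**Figure D4:**
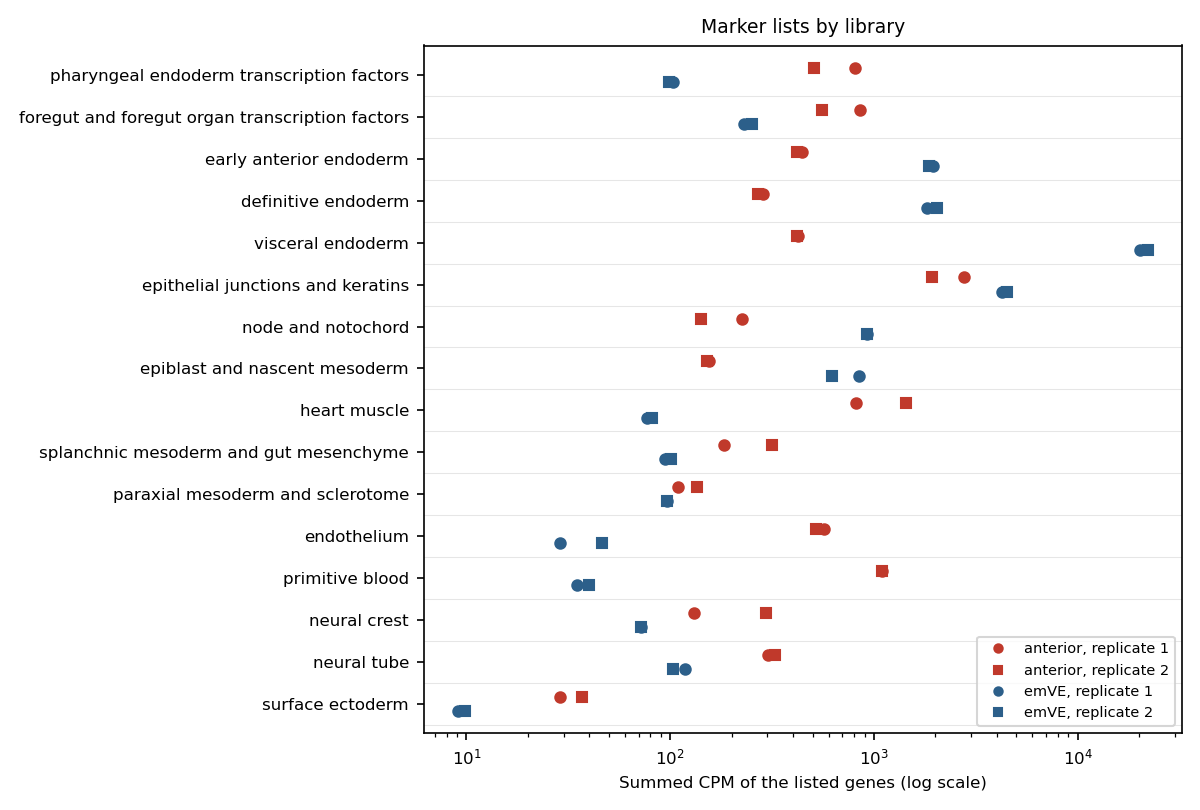
Summed CPM of the genes of each marker list on a log scale, with 1 symbol per library (red, anterior; blue, emVE; circle, replicate 1; square, replicate 2). The anterior libraries lie to the left of emVE for visceral endoderm, definitive endoderm and node genes and to the right for heart, endothelium and blood genes, and heart and neural crest sums separate the 2 anterior libraries.

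The 12 largest increases among genes whose anterior libraries averaged 3 or more in log2 CPM included Pax1 and Foxe1 of the pharyngeal and foregut lists. Vgll2, a cofactor of pharyngeal and muscle tissue, had 104 and 51.5 CPM in the anterior libraries and 0 and 0.152 CPM in emVE, a log2 fold change of 9.90 (SE 1.87, adjusted p = 0.00167). Mybpc3, Csrp3 and Unc45b serve muscle: Mybpc3 was at least 1475-fold and Csrp3 at least 340.2-fold higher against 0 counts in emVE, and Unc45b had 9.96 (SE 1.09, adjusted p = 3.93e-05). Hba-x, Hbb-y and Slc4a1, the red cell anion exchanger, belong to blood, and Slc4a1 was at least 887-fold higher. Emcn belongs to vessels. Krt20, a keratin of differentiated epithelium, had 10.1 and 8.31 CPM in the anterior libraries and 0 and 0 CPM in emVE, at least 379-fold higher. Nr2f1, a nuclear receptor of crest and neural tissue, had 7.63 and 68.6 CPM in the anterior libraries and 0.0514 and 0.0609 CPM in emVE. Its anterior level came mainly from replicate 2, with a log2 fold change of 9.36 (SE 1.64, adjusted p = 0.00107).

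**Figure D5:**
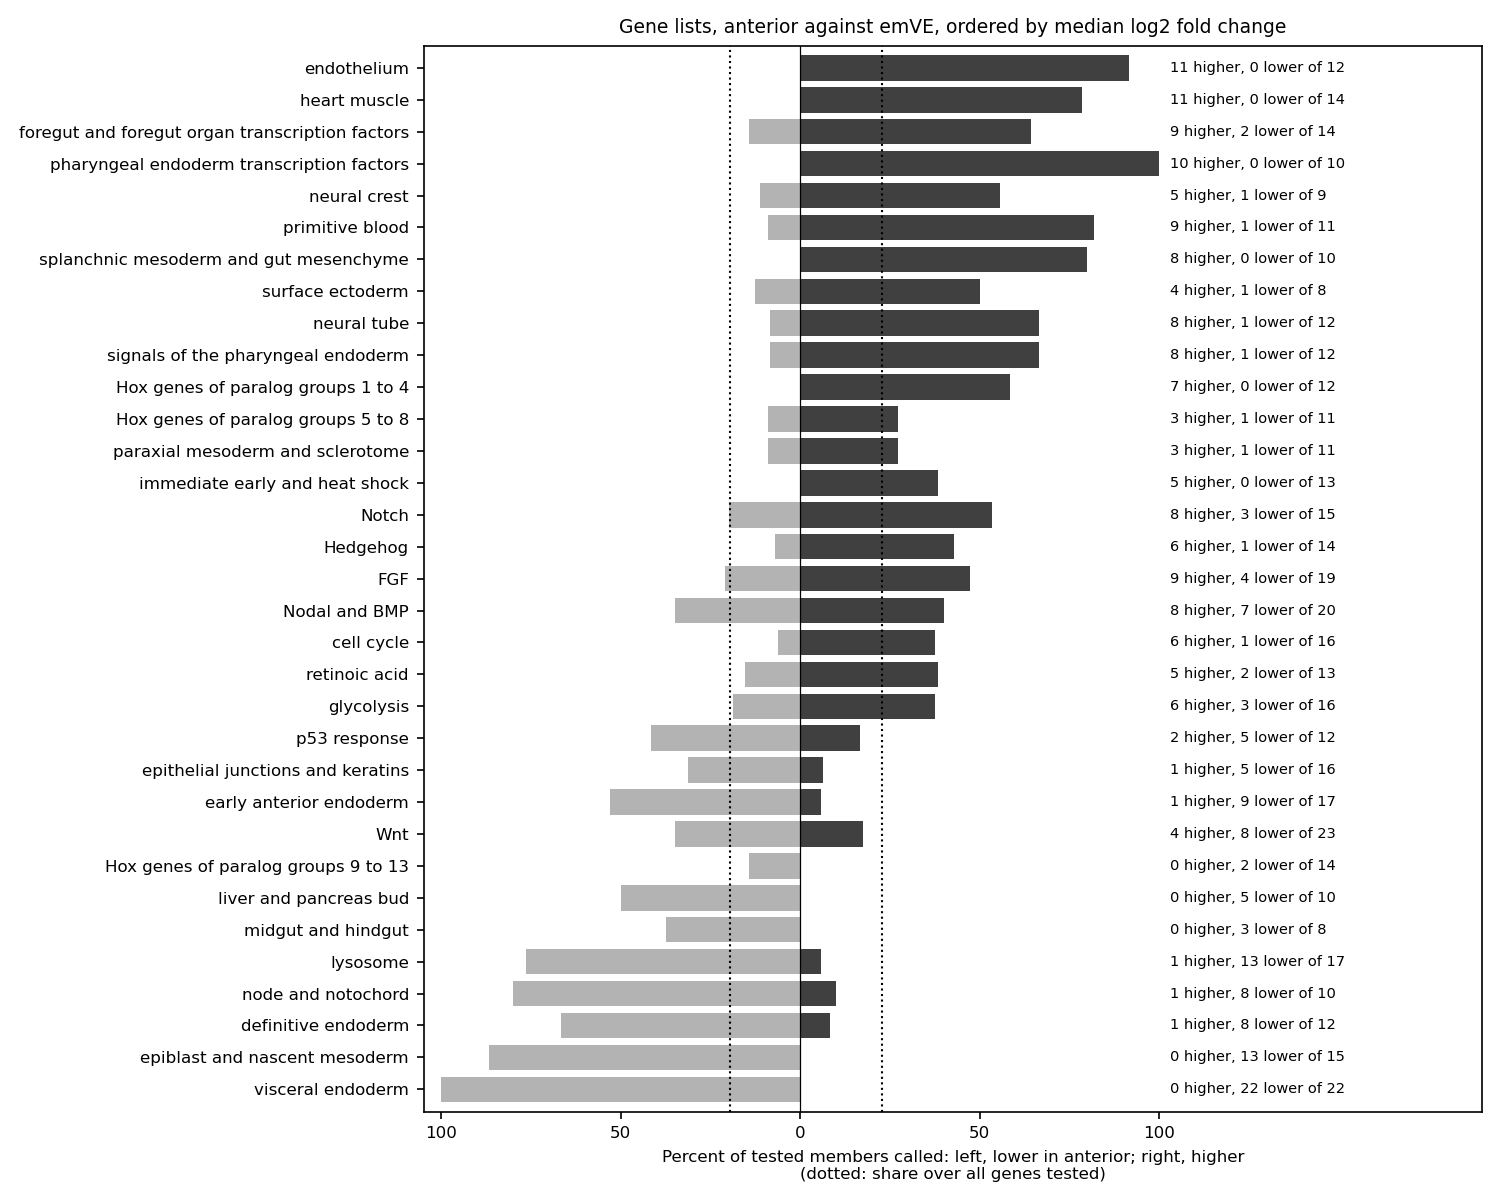
Share of the tested members of each gene list called lower (left, light) or higher (right, dark) in the anterior section than in emVE, in percent, with the counts at the right and lists ordered by median log2 fold change; dotted lines mark the shares over all genes tested, 19.5% lower and 22.9% higher. Pharyngeal factors reach 10 higher of 10, visceral endoderm genes 22 lower of 22, and early anterior endoderm genes 9 lower and 1 higher of 17.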

How the data were processed

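Values were raw counts of reads per gene as deposited by the authors, column 2 of each table of 26795 entries; per the submitters' processing notes reads were aligned with STAR, whose version is not given in the sources used here, nor are the genome build, the annotation, strandedness or the counter. Counts of 32 repeated symbols were summed, giving 26761. All 16 libraries were grouped by title (8 groups of 2) and fitted together in edgeR 4.0.16 (R 4.3.3): TMM factors, filterByExpr (minimum count 10, total 15; at least 99.99% of counts kept), 1 coefficient per group, quasi-likelihood F-test, 8 residual degrees of freedom, Benjamini-Hochberg adjustment over 17313 genes, threshold 0.05. CPM is the count over the total times the TMM factor. A fold against 0 counts is a lower bound set at 3 counts over the group. Intervals are 95%, from the fit's standard errors. Depth was 57061536 to 84509973 counts a library in the groups compared; counts without molecular identifiers are not independent molecules.

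The members and gene lists, and the promoter motifs, were chosen with earlier results of these data known. Named were all members of the pharyngeal, foregut organ, pharyngeal signal, early anterior, definitive endoderm and Hox lists, up to 4 called genes with the smallest p of each other list, and the 12 largest called changes in each direction among genes with non-overlapping libraries whose higher group averaged 3 or more in log2 CPM, predicted genes left out. A few members are counted with their lists but not reported singly here. Of the 212 genes named by this rule, 22 overlap another gene of the tables by exon in GENCODE vM21 (GRCm38), 9 over more than 10% of their exonic bases. Alternatives were DESeq2 1.42.0, RLE size factors, no filter, the 2 compared groups alone, replicate numbers as a block, and leaving out each library.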

Additional observations from a re-analysis of the deposited data

Results flagged for a closer look

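For 9 genes of the early anterior program the change against emVE differed between the anterior and the posterior section of the gut tube, by edgeR's quasi-likelihood test of the difference itself with adjustment over all 17313 genes (n = 2 per group; 7.91% of all genes tested differed). As the emVE libraries serve both changes, the difference of the 2 changes is the log2 level of the anterior minus that of the posterior section. Otx2 differed by 6.92 (adjusted p = 0.00889), with 79.6 and 43.6 CPM in the anterior libraries, against a mean of 0.507 ± 0.00758 CPM (SD) for posterior ones. Sfrp5 differed by 4.96 (adjusted p = 0.0107), and its anterior libraries were at 1.21 and 13.5 CPM. Hesx1 differed by 4.09 (adjusted p = 0.00110), Pyy by 2.78 (adjusted p = 0.0248), Shisa2 by 2.41 (adjusted p = 0.00429), Fzd5 by 1.67 (adjusted p = 0.00130) and Fzd8 by 0.97 (adjusted p = 0.0211). For 2 genes the anterior section was the lower: Dkk1 differed by −1.36 (adjusted p = 0.0177) and Foxa2 by −1.48 (adjusted p = 0.0400). Groups of 2 were too small to look for a library far from the others.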

How the results depend on the processing

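Of the 169 called genes named by the rule, 146 were called in the same direction with each library left out and under every alternative. RLE size factors, no filter and DESeq2 lost 0 of them, and DESeq2 called 7 of the other 39 tested; the fits of the compared groups alone called 167 and left 2 untested. Leaving out anterior replicate 1, anterior replicate 2, emVE replicate 1 and emVE replicate 2 lost 12, 10, 16 and 14. A group left with 1 library was taken to have the spread of the rest. Against 3966 higher and 3370 lower genes in all, leaving out 1 library gave 2634 (without emVE replicate 1) to 2911 higher and 2203 (without anterior replicate 2) to 2599 lower. Pharyngeal signals were called higher in 5 to 8 of 12. The 1370 genes called between anterior and posterior section became 615 to 1037 with a library left out, 2259 in DESeq2 and 2389 with the replicate block in the compared groups alone. No sign was seen that replicate numbers mark pairs (correlation of deviations 0.00390 for same-numbered anterior and emVE libraries, across genes). This correlation cannot exclude that the numbers mark days, litters or preparations. The block over all libraries called 6963 genes against 7336 and left Fgf15 (adjusted p = 0.0544), Fgf3 (adjusted p = 0.0530) and Meox2 (adjusted p = 0.0603) uncalled, and in the compared groups alone it called 12 early anterior genes lower against 9. Direction changed in 12 genes, none called with all libraries. Gata6 (0.01) was −0.0181 with RLE, −0.0180 with DESeq2, −0.0182 with the block over all libraries, −0.00896 with no filter, −0.0360 in the compared groups alone and −0.11 with the block there, where Nepn (0.15) was −0.0580 and Sfrp5 (0.37) −0.44; the cause was not tested. With a library left out, log2 fold changes spanned −0.55 to 0.42 in Gata6, −1.14 to 0.88 in Nepn, −2.22 to 1.25 in Sfrp5, −5.80 to 0.38 in Hoxa10, −4.26 to 2.97 in Hoxa11, −1.82 to 2.12 in Hoxa4, −1.72 to 0.46 in Hoxb6, −1.26 to 0.39 in Hoxd1, −5.27 to 2.98 in Hoxd10, −0.91 to 4.44 in Hoxd11, −0.28 to 6.95 in Hoxd3 and −5.56 to 0.89 in Hoxd8. A gene at 0 counts in a group gives only a bound on its fold at this depth; the part of depth in the other low genes was not tested.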

Other observations

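Of 16 cell cycle genes, 6 were called higher and 1, Mki67, lower in the anterior section (median log2 fold change 0.24). The share called, 43.75%, was near the 42.4% of all genes tested. Cdk1, the mitotic kinase, had 309 and 313 CPM in the anterior libraries and 166 and 166 CPM in emVE, and its log2 fold change was 0.90 (SE 0.08, adjusted p = 1.51e-05) in edgeR's quasi-likelihood test. Mcm6, of the replication helicase, had 0.59 (SE 0.08, adjusted p = 0.000197). Mcm3, at 0.40 (SE 0.10, adjusted p = 0.00715), was not called without anterior replicate 2 (adjusted p = 0.0636), and Ccnb1, at 0.37 (SE 0.11, adjusted p = 0.0148), without either anterior library (adjusted p = 0.0642 and 0.0622) or emVE replicate 2 (adjusted p = 0.102). Of 12 p53 response genes, 2 were called higher and 5 lower (median -0.36). Cdkn1a, a cell cycle inhibitor, had 5.45 and 5.85 CPM in the anterior libraries and 20.2 and 19.9 CPM in emVE, a log2 fold change of -1.83 (SE 0.32, adjusted p = 0.000909). Pmaip1 and Sesn2 had log2 fold changes of -2.98 (SE 0.37, adjusted p = 8.94e-05) and -1.17 (SE 0.13, adjusted p = 3.95e-05), and the apoptosis gene Bbc3 rose, with 1.60 (SE 0.25, adjusted p = 0.000354).

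Of 16 glycolysis genes, 6 were called higher and 3 lower (median 0.07). The glucose transporters Slc2a3 and Slc2a1 fell. Slc2a3 had 875 and 801 CPM in the anterior libraries and 5003 and 5559.9 CPM in emVE, a log2 fold change of -2.66 (SE 0.34, adjusted p = 0.000115), and Slc2a1 had -1.43 (SE 0.15, adjusted p = 3.62e-05). The enzymes Ldha and Pgk1 rose, with log2 fold changes of 0.64 (SE 0.12, adjusted p = 0.00159) and 1.28 (SE 0.16, adjusted p = 0.000103). Of 13 immediate early and heat shock genes, 5 were called higher and 0 lower (median 1.31). The share called, 38.5%, was near the 42.4% of all genes tested. Their sum was 2311 and 3062 CPM in the anterior libraries and 2333 and 2566 CPM in emVE. Fos, Fosb, Egr1, Hspa1a, Hspa1b, Dnajb1, Hspa8 and Hsph1 were not called. Jun had 181 and 349 CPM in the anterior libraries and 41.5 and 46.9 CPM in emVE, a log2 fold change of 2.58 (SE 0.34, adjusted p = 0.000119), with Atf3 at 2.53 (SE 0.38, adjusted p = 0.000307) and Ier2 at 1.49 (SE 0.24, adjusted p = 0.000476). Junb, at 1.31 (SE 0.34, adjusted p = 0.00886), was not called without anterior replicate 2 (adjusted p = 0.115) or emVE replicate 1 (adjusted p = 0.0734). Stage and the length of the enzyme step, which the labels' protocol gives separately for each stage, cannot be told apart in these genes.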
